A study of Rattus norvegicus with 30 samples.

Results

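The proteasome genes of cultured rat hippocampal neurons are described here: the 42 protein-coding genes, of 21993 genes in all, whose symbol starts with Psma, Psmb, Psmc, Psmd, Psme or Psmf followed by a digit. Primary neurons were prepared from wild-type Wistar rat embryos at embryonic day 18 and grown for 7 days. They then received dimethyl fumarate (DMF) or monomethyl fumarate (MMF), each at 30 µM in dimethyl sulfoxide (DMSO), or cannabidiol (CBD) at 6 µM in ethanol (EtOH), for 4 or 24 h, and the control cultures of each time received DMSO or EtOH alone. Vehicle was present at 0.2% in every culture. DMF is the dimethyl ester of fumaric acid and is hydrolysed to MMF, the ester with a single methyl group, whereas CBD is a cannabinoid. Poly(A)+ RNA was sequenced in 3 libraries for each of the 10 groups, numbered 1 to 3. Per the study's methods each experiment was repeated 3 times. Whether the numbers stand for separate litters is not given in the sources used here, so p-values measure the spread between these libraries, which may be technical in part.

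The proteasome is the cell's main protease for proteins tagged with ubiquitin. Its barrel, the 20S core, stacks outer rings of alpha subunits, which gate the entrance, on inner rings of beta subunits, some of which are the peptidases. The 19S cap recognizes and deubiquitinates substrates with its non-ATPase subunits (Psmd genes) and unfolds them with a ring of ATPases (Psmc genes), and core and caps together make the 26S proteasome. Other caps, the 11S activator of Psme1 and Psme2 and PA200 of Psme4, can take the place of the 19S cap, and interferon-inducible beta subunits can take the place of the constitutive peptidases in the immunoproteasome. Transcription of the 26S genes is known to be raised together by Nfe2l1 (Nrf1) when proteasome activity falls, and Nfe2l2 (Nrf2), which fumarates are known to activate, has also been tied to proteasome genes.

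Of the 42 genes, 31 encode core 26S subunits: 7 of the 20S alpha ring, 7 of the 20S beta ring, the 6 ATPases and 11 non-ATPase subunits of the 19S cap. Psmb8 and Psmb9 are inducible beta subunits, Psmd5 is a chaperone of 19S assembly, Psme1, Psme2 and Psme4 are activators, and Psmf1 is named as an inhibitor. Psmc3ip and Psme3ip1 match by symbol but encode proteins that interact with a subunit. The other two matches had few reads. Psma8, a germ cell alpha subunit, had 8 reads over all 30 libraries, and Psme1-ps1, annotated as protein-coding but named as a pseudogene of Psme1, had 246. Reads of Psme1 and this near-identical copy may be split between them, so that both are uncertain. The filter on low counts removed Psma8 and Psme1-ps1, and 40 genes were tested in each comparison of 2 groups. Psmb10, Psmb11, Psmd9, Psmd10 and Psme3 were not analysed here.

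Between 15108132 and 25367834 reads per library fell on genes, with a median of 20088658. Levels across all libraries are given as reads scaled to a common library total, each total being adjusted by the TMM factor of edgeR (CPM). Values within a comparison are given as normalized counts. The labelled cell type was checked with marker genes. The summed level of 12 neuronal markers lay between 4916 and 6852 CPM over the 30 libraries, that of 8 astrocyte markers between 2157 and 5557 CPM, and that of 9 microglial markers between 1.41 and 15.7 CPM, so that RNA of glia was present besides that of neurons. In all 10 groups the astrocyte sum was lowest in replicate 3. It was 2157 to 3086 CPM there and 3631 to 5557 CPM in replicates 1 and 2. In bulk RNA, fewer cells of a type cannot be told apart from less RNA per cell.

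The summed core of the proteasome lay within narrow limits over the 30 libraries, although some groups did not overlap. The summed level of the 31 core subunits was lowest in DMSO at 24 h, at 3655 ± 105 CPM (SD, n = 3), and highest in EtOH at 24 h, at 3867 ± 35.3 CPM. The 4 h cultures had 3841 ± 8.51 CPM in DMSO, 3783 ± 68.4 CPM after DMF and 3863 ± 66.5 CPM after MMF. For the CBD experiment of that time the sums were 3866 ± 68.4 CPM in EtOH and 3694 ± 70.6 CPM after CBD. The 24 h cultures had 3819 ± 139 CPM after DMF, 3747 ± 75.1 CPM after MMF and 3719.7 ± 74.1 CPM after CBD. All CBD libraries were below all EtOH libraries at both times. Their ranges were 3613 to 3737 against 3819 to 3945 CPM at 4 h and 3660 to 3803 against 3826 to 3888 CPM at 24 h. DMF and MMF overlapped with DMSO at both times, and all DMSO libraries of 24 h were below those of 4 h. Differences of the sum were not tested. Over all 30 libraries the sum ran from 3533 to 3945 CPM, a ratio of 1.12, with a coefficient of variation of 2.63%. The median SD of log2 CPM over the 30 libraries was 0.074 for the 31 core subunits and 0.14 for the 8917 genes with over 300 reads on average. Those genes were not matched to the core by number of reads, so the lower SD does not show unusual stability. Among the core subunits, the ATPase Psmc5 varied least (SD 0.048) and Psma2, of the alpha ring, varied most (SD 0.14).

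**Figure D1:**
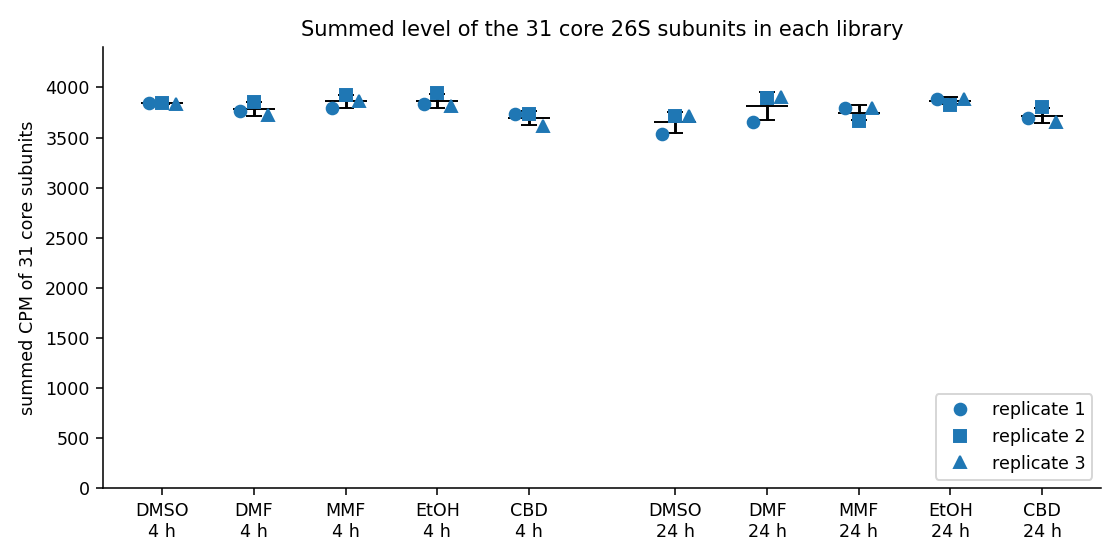
Summed level of the 31 core 26S subunits (CPM, y axis from 0) in each of the 30 libraries, by group; marks show the replicate number, and horizontal lines and bars the mean ± SD of 3 libraries. All libraries lie between 3533 and 3945 CPM, and the DMSO group at 24 h has the lowest mean.

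The first question was which proteasome genes differed between a drug and its vehicle. None of the 40 passed the test in any of the 6 such comparisons (limma, adjusted p under 0.05 over all genes tested). The share of all genes called, the background for that count, was 3.41% for DMF at 4 h, 3.97% for DMF at 24 h, 0% and 0.00707% for MMF at 4 and 24 h, and 0.00705% and 0.114% for CBD at 4 and 24 h. Without the block, neither edgeR nor DESeq2 called any of the 40 in these comparisons, while of all genes edgeR called 498 and DESeq2 1024 of 14208 for DMF at 4 h, and 535 and 852 of 13967 at 24 h. Unadjusted p-values lay under 0.05 for 3 of the 40 genes with DMF at 4 h (20.1% of all genes) and 7 with DMF at 24 h (17.4%). The same counts were 0 and 2 for MMF at 4 and 24 h (0.257% and 4.43% of all genes), and 3 and 1 for CBD (3.97% and 9.83%). Libraries with the same number moved together in this study. The test with the replicate number as a block made more calls in all genes, except for MMF at 4 h (0% with and without it). With the block, Psmc4 and Psmf1 passed for DMF at 4 h (2 of 40, background 23%) and Psme4 passed for DMF at 24 h (1 of 40, background 12.9%). No gene of the 40 passed with the block for MMF at 4 h (background 0%) and 24 h (1.38%) or for CBD at 4 h (2.33%) and 24 h (0.504%).

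**Figure D2:**
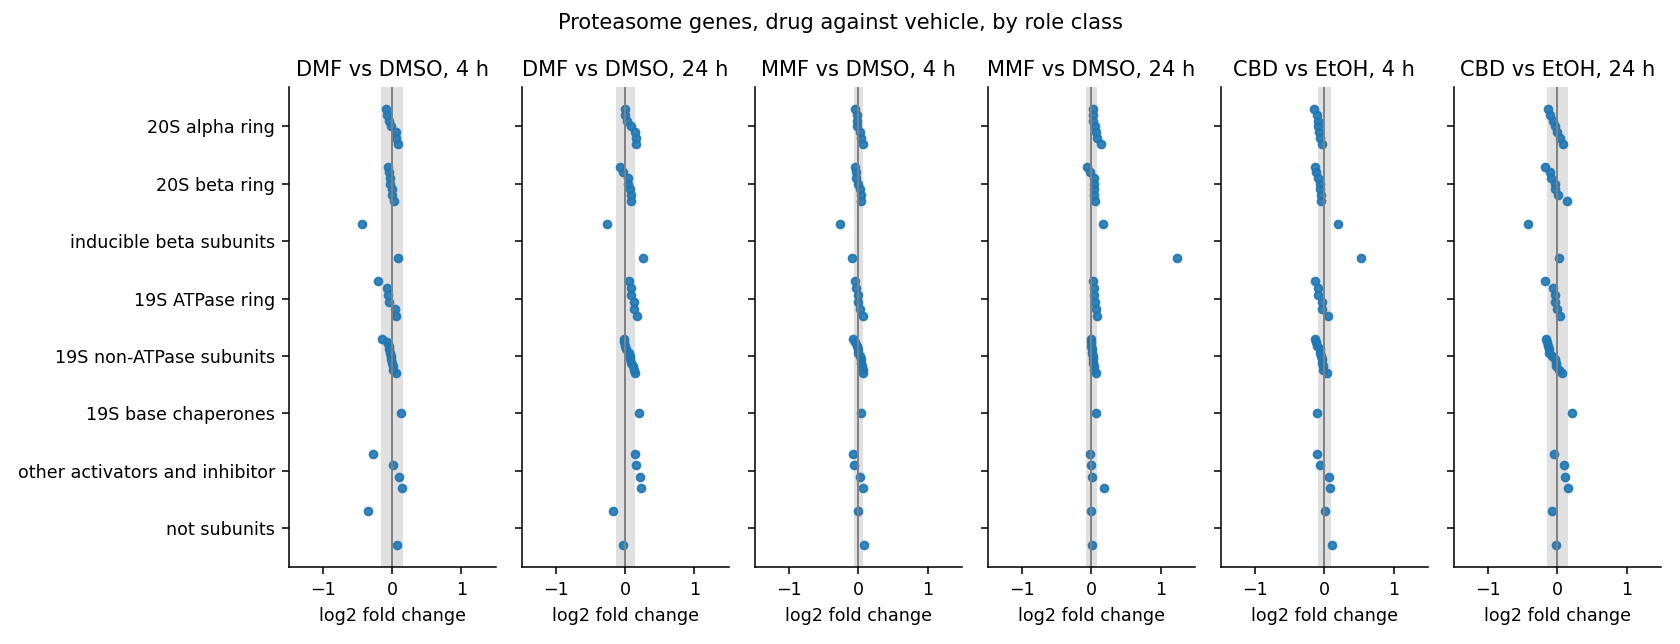
Log2 fold change of each tested proteasome gene (x axis) in the 6 comparisons of drug with vehicle, by role class (y axis); each point is 1 gene, and the grey band spans the median absolute change of all genes tested on either side of 0. The core classes lie close to 0 in all panels, and the outlying point for MMF at 24 h, at 1.23, is Psmb8, which had few reads.

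The precision was sufficient to bound the changes of the core. In each of the 10 comparisons of 2 groups, the 95% confidence interval of the log2 fold change (log2FC, on the scale of normalized count plus 1) of all 31 core subunits lay within ±0.5, a 1.41-fold change, whereas between 49.5% and 74.5% of all genes tested had such an interval. The median absolute log2FC of the 31 subunits was between 0.033 and 0.076 in these comparisons, and that of all genes between 0.055 and 0.19. The core subunits had between 848 and 8106 reads per library, whereas all genes tested include genes with few reads. The median SE was between 0.054 and 0.080 for the core and between 0.091 and 0.13 for all genes. Genes with a similar number of reads were not compared here, so these shares do not show that the core is unusually stable. The median log2FC of the core was -0.029 with DMF at 4 h (9 of 31 above 0) and 0.068 at 24 h (24 of 31). It was -0.0065 with MMF at 4 h (15 of 31) and 0.032 at 24 h (26 of 31), and -0.067 with CBD at 4 h (2 of 31) and -0.039 at 24 h (7 of 31). Leaving out 1 library moved these medians. For DMF at 4 h the median lay between -0.041 and -0.012, and it was nearest to 0 without replicate 1 of DMF, -0.012, replicate 3 of DMF, -0.017, or replicate 3 of DMSO, -0.017. For DMF at 24 h it lay between 0.044 and 0.094, the lowest being without replicate 1 of DMSO. For MMF at 4 h its sign depended on the library left out, with a range of -0.017 to 0.024. For MMF at 24 h it was 0.013 without replicate 1 of DMSO (21 of 31 above 0), 0.021 without replicate 1 of MMF (22 of 31) and 0.051 without replicate 2 of MMF (28 of 31). With CBD at 4 h, 4 of 31 were above 0 without replicate 2 of EtOH and 5 without replicate 3 of CBD. With CBD at 24 h, 12 of 31 were above 0 without replicate 1 of CBD, and the median was -0.071 without replicate 2 of CBD. Both fumarates were compared with the same DMSO libraries at 24 h. Those libraries were themselves lower than DMSO at 4 h, with a core median of -0.073 and 2 of 31 subunits above 0, of which none passed.

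The order of whole groups gave another view of the same values. With DMF at 24 h, 13 of 40 proteasome genes had all treated libraries above all vehicle libraries and 0 had them below, beside 11.3% and 11.5% of all genes tested. The 13 were Psma1, Psma5, Psmb7, Psmc1, Psmc2, Psmc5, Psmc6, Psmd5, Psmd7, Psmd11, Psmd14, Psme1 and Psme4. For MMF at 24 h, against the same DMSO libraries, 5 were above and 0 below (background 4.62% and 5.11%). In those DMSO libraries themselves, 14 of 40 genes were below all DMSO libraries of 4 h and 0 were above (background 7.51% and 8.31%). The part of these DMSO libraries in the orders with DMF and MMF was not tested. For DMF at 4 h, 2 genes were above and 3 below (background 13.0% and 13.3%), and for MMF at 4 h 0 of 40 were separate in either direction (background 2.76%). CBD at 4 h left 12 of 40 genes below and 1, Psmf1, above (background 5.25% and 4.7%), and CBD at 24 h 6 below and 2 above (background 8.59% and 7.35%).

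The letters before the start of these genes are shown because proteasome promoters are known to carry binding motifs of the factors named above. Promoters of 37 of the 42 genes were found in RefSeq (GRCr8 build) and searched on both strands over 300 bases, 250 before and 50 after the start. The core of the antioxidant response element, TGACNNNGC, which Nfe2l1 and Nfe2l2 bind, was in 7 of the 37 (18.9%, against 12.2% of all 27457 promoters): Psma3, Psmb2, Psmb5, Psmb6, Psmd1, Psmd3 and Psme4. The CCAAT box was in 19 (51.4%, against 37.7%), and the ETS core CCGGAAG in 14 (37.8%, against 9.22%). The heat shock element, with GAA, TTC and GAA spaced by 2 bases, was in 0 of 37 and in 0.736% of all. The 250 bases before the start are given for Psmf1 (chr3:160720916-160721165, minus strand), Psmc4 (chr1:92485061-92485310, minus strand) and Psme4 (chr14:108706393-108706642, plus strand), which passed with the block, and for Psmb5 (chr15:32047380-32047629, minus strand), a core peptidase that did not. Capitals mark a CCAAT box in Psmf1, read on the other strand and starting 92 bases before the start, and the antioxidant response element core in Psme4 (on the other strand) and Psmb5, starting 55 and 60 bases before it. Psmc4 had no match to the motifs searched in these bases.
Psmf1: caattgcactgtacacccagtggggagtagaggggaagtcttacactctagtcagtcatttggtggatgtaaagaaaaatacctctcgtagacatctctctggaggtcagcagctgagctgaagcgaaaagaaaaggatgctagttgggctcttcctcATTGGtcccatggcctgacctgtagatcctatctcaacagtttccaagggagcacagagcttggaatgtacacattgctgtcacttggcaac
Psmc4: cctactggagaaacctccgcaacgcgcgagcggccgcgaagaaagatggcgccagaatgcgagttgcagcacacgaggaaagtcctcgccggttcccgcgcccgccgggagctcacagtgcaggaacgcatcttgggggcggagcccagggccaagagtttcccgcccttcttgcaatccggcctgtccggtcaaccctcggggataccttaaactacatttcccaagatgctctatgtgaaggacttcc
Psme4: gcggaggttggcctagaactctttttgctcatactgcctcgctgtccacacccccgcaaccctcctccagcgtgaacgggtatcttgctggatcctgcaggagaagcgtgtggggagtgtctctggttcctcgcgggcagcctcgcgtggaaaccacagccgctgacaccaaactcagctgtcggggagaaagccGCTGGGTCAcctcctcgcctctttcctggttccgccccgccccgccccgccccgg
Psmb5: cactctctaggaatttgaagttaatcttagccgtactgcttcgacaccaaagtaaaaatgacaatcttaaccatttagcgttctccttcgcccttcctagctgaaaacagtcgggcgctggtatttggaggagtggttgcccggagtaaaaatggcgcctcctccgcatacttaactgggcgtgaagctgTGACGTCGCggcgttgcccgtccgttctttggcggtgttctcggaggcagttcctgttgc
A match of letters is a description and no measure of binding, and motifs that were not searched may overlap the marked ones. Psme4 and Psmb5 are 2 of the 7 genes with the antioxidant response element core and do not stand for all of them. Their log2FC with DMF at 24 h were 0.23 and -0.080, that of Psmb5 being the lowest of the 31 core subunits. The part of the motif in these values was not tested.

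The alpha ring of the 20S core had no member past the test, and the log2FC of its 7 subunits lay between -0.15 and 0.16 over the 6 drug comparisons. Psma1 had 1734, 1877 and 1707 with DMF and 1924, 1834 and 1935 with DMSO at 4 h. The groups overlapped, with replicate 2 of DMF among the DMSO libraries (log2FC = -0.099, SE = 0.069, adjusted p = 0.481). At 24 h Psma1 had 1592, 1724 and 1810.2 with DMF and 1458, 1573 and 1553 with DMSO. All DMF libraries were above all DMSO libraries there, and the difference did not pass (log2FC = 0.16, SE = 0.070, adjusted p = 0.280, and 0.0873 with the block). The comparison of MMF with DMSO at 24 h, which rests on the same DMSO libraries, gave 1748, 1711 and 1835 with MMF and 1534, 1652 and 1631 with DMSO for Psma1, again without overlap (log2FC = 0.14, SE = 0.054, adjusted p = 0.952). Psma5, of the same ring, had 1613, 1612 and 1605 with DMF and 1413, 1486 and 1423 with DMSO at 24 h. Its DMF libraries lay close to each other and above all DMSO libraries, and the difference did not pass (log2FC = 0.16, SE = 0.058, adjusted p = 0.191, and 0.0859 with the block). With CBD at 4 h all 7 alpha subunits had a log2FC below 0, with a median of -0.088, and none passed.

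The beta ring holds the peptidases of the constitutive proteasome. The log2FC of its 7 subunits lay between -0.17 and 0.13, and none passed. Psmb5, the chymotrypsin-like peptidase, had 2037, 2391 and 2511 with DMF and 2424, 2121 and 2529 with DMSO at 4 h and 1867, 2248 and 2311 with DMF and 2128, 2298 and 2342 with DMSO at 24 h. The groups overlapped at both times, and replicate 1 of DMF was the lowest library of each (log2FC = -0.029, SE = 0.10, adjusted p = 0.920 at 4 h and log2FC = -0.080, SE = 0.089, adjusted p = 0.709 at 24 h). CBD at 24 h gave 1936, 2319 and 2046 with CBD and 2215, 2298 and 2597 with EtOH for Psmb5, the largest difference of this subunit against a vehicle, with replicate 2 of CBD among the EtOH libraries (log2FC = -0.17, SE = 0.10, adjusted p = 0.605). Psmb6, the caspase-like peptidase, had 1707, 1852 and 1709.5 with DMF and 1884, 1660.2 and 1746 with DMSO at 4 h and 1526, 1601 and 1624 with DMF and 1477, 1571 and 1500.3 with DMSO at 24 h. Both pairs of groups overlapped (log2FC = -0.0050 and 0.063). Psmb7, the trypsin-like peptidase, had 3223, 3305 and 3324 with DMF and 3249.8, 3248 and 3232 with DMSO at 4 h, and 3083, 2976 and 3076 with DMF and 2782, 2916 and 2951 with DMSO at 24 h. The groups overlapped at 4 h (log2FC = 0.018, SE = 0.060, adjusted p = 0.916) and were separate at 24 h by a small difference (log2FC = 0.079, SE = 0.057, adjusted p = 0.534). Psmb4, a beta subunit without peptidase activity, had 3306, 3635 and 3312 with DMF and 3659, 3595 and 3463 with DMSO at 4 h, with overlap (log2FC = -0.065, SE = 0.069, adjusted p = 0.675). In the CBD experiment of that time Psmb4 had 3224, 3164 and 3330.5 with CBD and 3504, 3727 and 3439 with EtOH, with all CBD libraries below all EtOH libraries (log2FC = -0.13, SE = 0.057, adjusted p = 1.000).

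The 19S ATPases unfold substrates and thread them into the core. Of the 31 core subunits, Psmc4 had the log2FC farthest from 0 with DMF at 4 h. Its normalized counts were 1981, 1836 and 1849.7 with DMF and 2309, 1961 and 2312 with DMSO. Each DMF library was below the DMSO library of the same number, while the highest DMF library lay above the lowest DMSO library. The difference did not pass without the block (log2FC = -0.21, SE = 0.084, adjusted p = 0.208) and passed with it (adjusted p = 0.0139). MMF at 4 h left Psmc4 at 1855, 2036 and 2078 with MMF and 2109.7, 1789 and 2109.9 with DMSO, and CBD at 4 h at 2169.8, 2251 and 2097 with CBD and 2052, 2091 and 2124 with EtOH. Both pairs of groups overlapped (log2FC = -0.0072, SE = 0.093, adjusted p = 1.000 for MMF and log2FC = 0.056, SE = 0.055, adjusted p = 1.000 for CBD). At 24 h the DMF comparison of Psmc4 gave 1831, 2096 and 2153 with DMF and 1858, 1973 and 2032 with DMSO, also with overlap (log2FC = 0.050, SE = 0.077, adjusted p = 0.800). Psmc1 had 2764, 2437 and 2563 with DMF and 2746, 2663 and 2748 with DMSO at 4 h, with overlap (log2FC = -0.073, SE = 0.070, adjusted p = 0.636). At 24 h Psmc1 had 2548, 2701 and 2699 with DMF and 2376, 2324 and 2380.4 with DMSO. Every DMF library was above every DMSO library (log2FC = 0.17, SE = 0.057, adjusted p = 0.170, and 0.0656 with the block), and the adjusted p without the block was the lowest of the 31 core subunits at that time. All 6 ATPases had a log2FC above 0 at 24 h with DMF (median 0.10) and 6 of 6 with MMF (median 0.046), against the same DMSO libraries, and none passed.

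**Figure D3:**
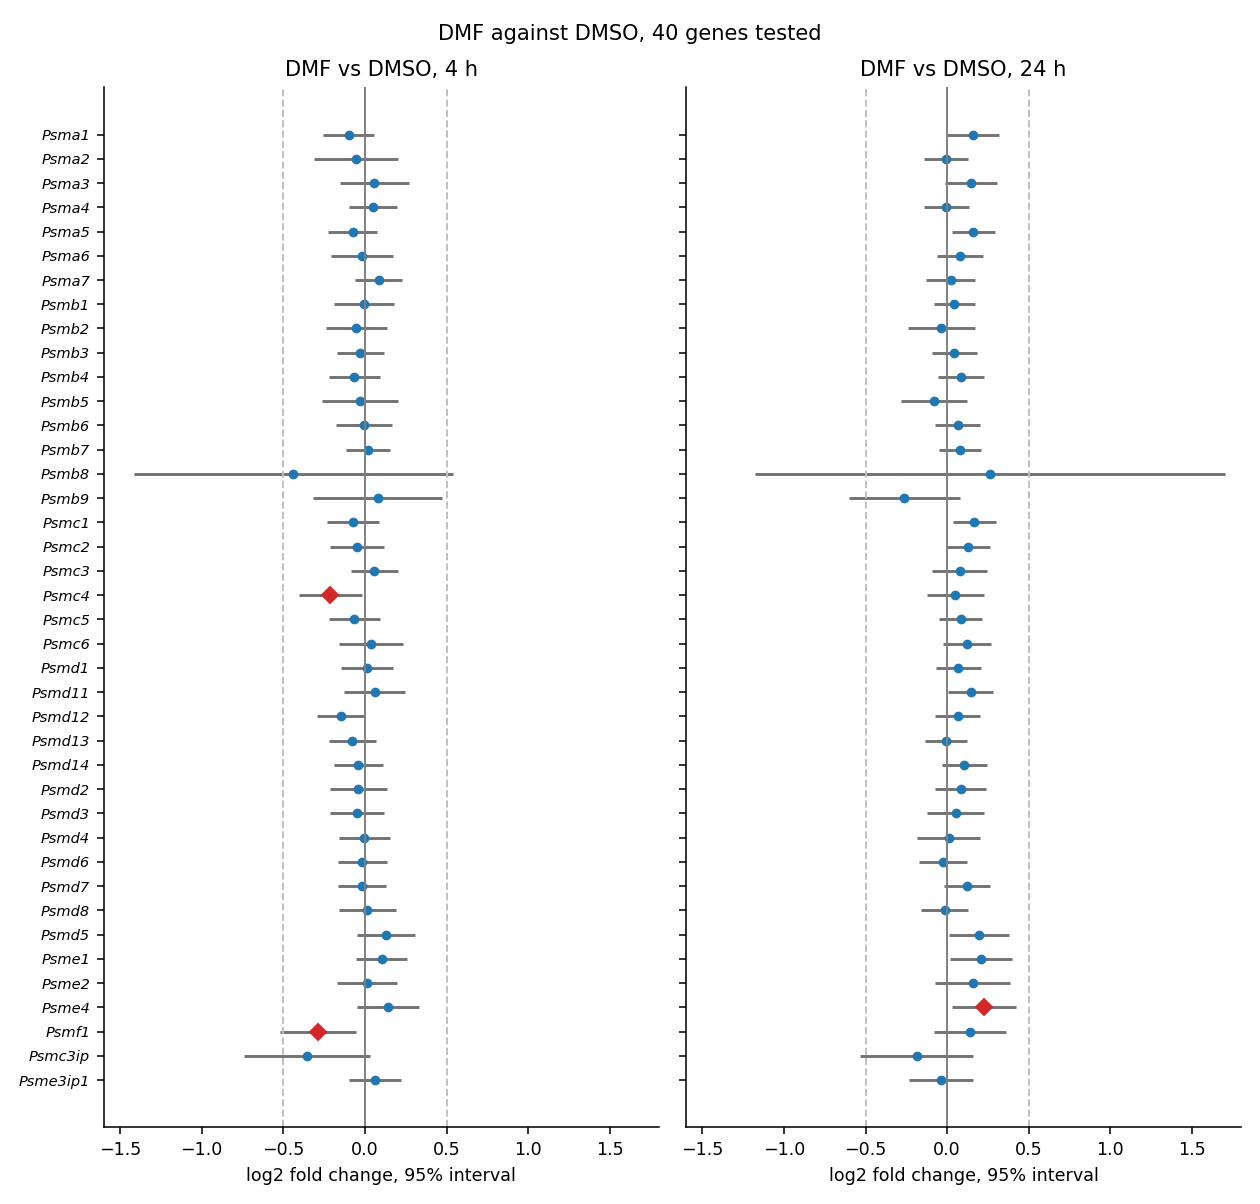
Log2 fold change of DMF against DMSO (x axis) at 4 h (left) and 24 h (right) for the 40 genes tested (y axis), n = 3 libraries per group; lines are 95% confidence intervals of the test without the block, red diamonds are genes that passed with the replicate block, and dashed lines mark ±0.5. The intervals of Psmb8 are the widest, and those of the core subunits stay inside the dashed lines.

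The 11 non-ATPase subunits of the cap include the scaffolds Psmd1 and Psmd2, the ubiquitin receptor Psmd4 and the deubiquitinase Psmd14. Their log2FC lay between -0.17 and 0.14, and none passed against vehicle with or without the block. Psmd12, a subunit of the lid, had 1666, 1595 and 1546 with DMF and 1774, 1799 and 1754 with DMSO at 4 h. All DMF libraries were below all DMSO libraries (log2FC = -0.15, SE = 0.064, adjusted p = 0.246, and 0.0629 with the block). At 24 h it had 1626, 1751 and 1639.5 with DMF and 1566, 1585 and 1651 with DMSO, with overlap (log2FC = 0.063, SE = 0.062, adjusted p = 0.663). Psmd11, another lid subunit, had 2040.3, 2205 and 2064 with DMF and 1864, 1962 and 1886 with DMSO at 24 h. Here the DMF libraries were the higher ones, without overlap (log2FC = 0.14, SE = 0.061, adjusted p = 0.269). Psmd5, the chaperone of the ATPase ring, had 1084, 1113 and 969 with DMF and 977, 955 and 958 with DMSO at 4 h and 849.5, 943 and 813 with DMF and 778, 713 and 782 with DMSO at 24 h. The groups were separate at 24 h but not at 4 h (log2FC = 0.13, SE = 0.078, adjusted p = 0.412 at 4 h and log2FC = 0.19, SE = 0.082, adjusted p = 0.259 at 24 h). With CBD at 24 h Psmd5 had 852, 925 and 1035 with CBD and 845, 815 and 756 with EtOH, all CBD libraries being above all EtOH libraries (log2FC = 0.22, SE = 0.10, adjusted p = 0.539).

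Psmf1 encodes PI31, a protein that binds the 20S core and inhibits it in vitro. At 4 h its normalized counts were 366, 361 and 381 with DMF and 415, 441 and 499 with DMSO. All DMF libraries were below all DMSO libraries. The difference did not pass without the block (log2FC = -0.29, SE = 0.10, adjusted p = 0.164) and passed with it (adjusted p = 0.0289). At 24 h the counts were 424, 511 and 507 with DMF and 440.2, 444 and 420.1 with DMSO. Replicate 1 of DMF lay among the DMSO libraries and the other two above them (log2FC = 0.14, SE = 0.096, adjusted p = 0.510). The MMF comparisons gave 377, 390.1 and 410.0 with MMF and 379, 402 and 455 with DMSO at 4 h and 445, 456 and 444 with MMF and 463, 466 and 441 with DMSO at 24 h. The groups overlapped at both times (log2FC = -0.068, SE = 0.11, adjusted p = 1.000 at 4 h and log2FC = -0.027, SE = 0.067, adjusted p = 0.983 at 24 h). In the CBD experiment Psmf1 had 473, 473 and 467 with CBD and 444, 463 and 449.6 with EtOH at 4 h and 389.5, 485 and 569 with CBD and 420.0, 439 and 479 with EtOH at 24 h. The 4 h groups were separate by a small difference (log2FC = 0.059, SE = 0.071, adjusted p = 1.000), whereas at 24 h the CBD libraries spread on both sides of the EtOH libraries (log2FC = 0.094, SE = 0.15, adjusted p = 0.859).

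Between the times, Psmf1 was the single gene of the 40 to pass the test without the block. In DMF its normalized counts were 472, 567 and 565 at 24 h and 376, 371 and 389 at 4 h. The groups did not overlap, and Psmf1 was 1.405-fold higher at 24 h (log2FC = 0.49, SE = 0.10, adjusted p = 0.0170, 1 of 40 called, background 15.5%). The call was also made by edgeR (adjusted p = 0.0161) and DESeq2 (adjusted p = 0.00212). In DMSO the counts were 428, 432 and 411 at 24 h and 374, 396 and 447 at 4 h, with overlap (log2FC = 0.067, SE = 0.095, adjusted p = 0.842). The call in DMF was lost when any of 3 libraries was left out, namely replicate 1 of DMF at 4 h (adjusted p = 0.0516), replicate 2 of DMF at 4 h (adjusted p = 0.0645) or replicate 2 of DMF at 24 h (adjusted p = 0.0745). The effect of DMF at 24 h minus that at 4 h, tested as an interaction in 12 libraries, was 0.42 for Psmf1 (SE 0.13). It did not pass without the block (adjusted p = 0.0968, 0 of 40 called, background 4.12%, unadjusted p under 0.05 for 6 and 19.3% of all genes, and 0 by edgeR and DESeq2). It passed with the block (adjusted p = 0.0340, 1 of 40 called, background 13.2%). Without replicate 1 of DMF at 24 h, which lay among the DMSO libraries, the interaction of Psmf1 passed also without the block (0.51, adjusted p = 0.0497). When any other library was left out, this interaction did not pass without the block.

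Psmc4 was the other gene whose level in DMF differed between the times, and it passed with the block alone. Its counts in DMF were 2037, 2328 and 2401 at 24 h and 2038, 1887 and 1893 at 4 h. Replicate 1 was nearly the same at both times and the other two were higher at 24 h (log2FC = 0.22, SE = 0.083, adjusted p = 0.116, and 0.0475 with the block). With the block 2 of 40 genes were called in this comparison (background 32.3%). Psmd12 had 1809, 1946 and 1828 at 24 h and 1714, 1639 and 1582 at 4 h, all libraries of 24 h above all of 4 h, and missed the threshold in both tests (log2FC = 0.18, SE = 0.071, adjusted p = 0.125, and 0.0504 with the block).

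**Figure D4:**
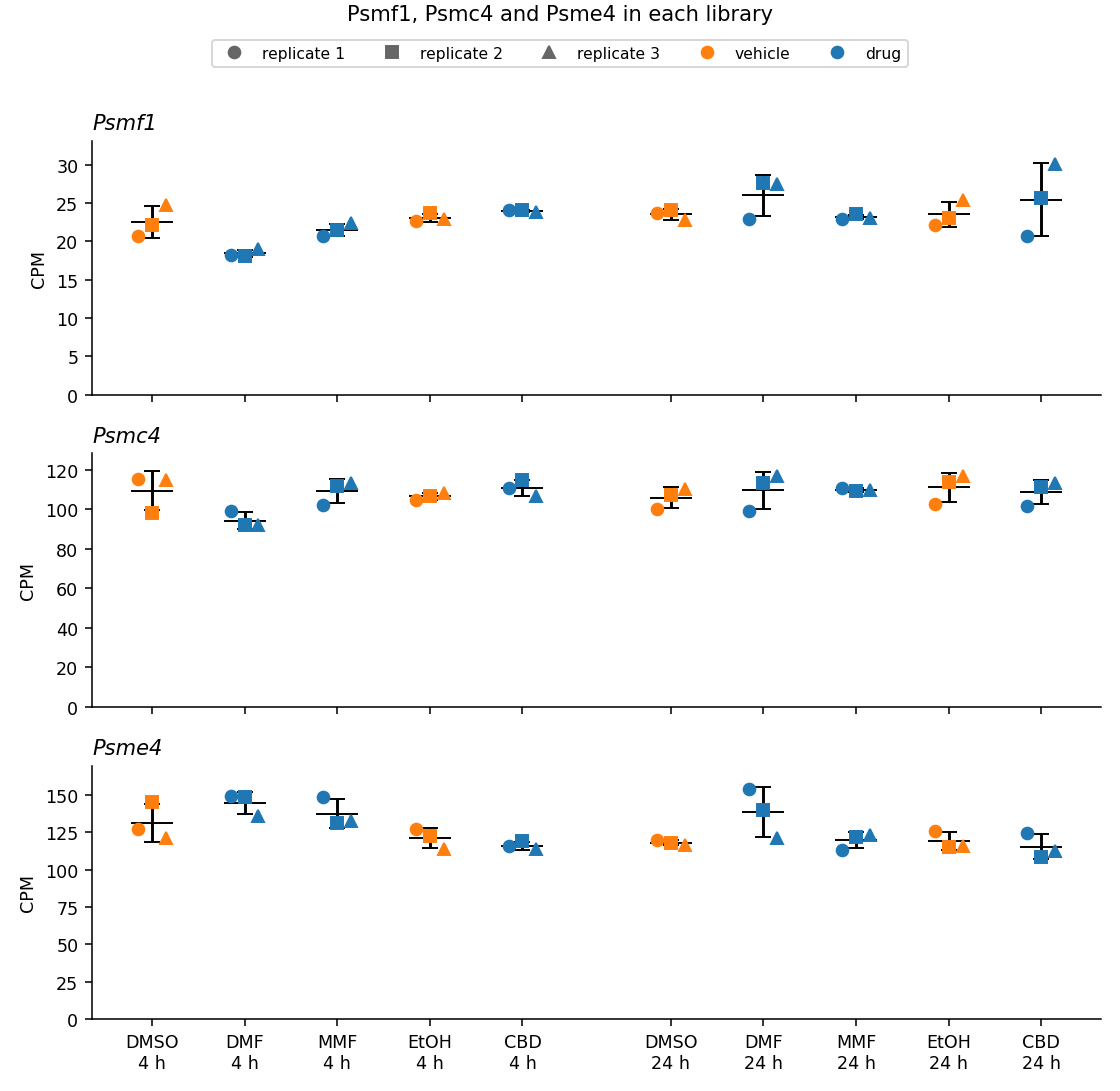
Level of Psmf1, Psmc4 and Psme4 (CPM, y axes from 0) in each of the 30 libraries, by group; marks show the replicate number, vehicle is orange and drug is blue, and lines and bars are the mean ± SD of 3 libraries. Psmf1 is lowest in the DMF group at 4 h, at 18.4 ± 0.452 CPM, against 26.02 ± 2.63 CPM in the DMF group at 24 h.

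Psme4, or PA200, is the activator whose promoter held the antioxidant response element core. At 24 h its counts were 2848, 2592 and 2240.4 with DMF and 2221, 2167 and 2150.4 with DMSO. All DMF libraries were above all DMSO libraries, with replicate 3 closest to them. The difference did not pass without the block (log2FC = 0.23, SE = 0.087, adjusted p = 0.216) and passed with it (adjusted p = 0.0443). Without replicate 3 of DMF the log2FC was 0.32, and Psme4 passed also without the block (adjusted p = 0.0230). When any other library was left out, Psme4 did not pass without the block. At 4 h Psme4 had 2984, 2973 and 2731 with DMF and 2542, 2901 and 2442 with DMSO. Each DMF library was above the DMSO library of its number, and the groups overlapped (log2FC = 0.14, SE = 0.084, adjusted p = 0.395, and 0.0670 with the block). The comparison of MMF with DMSO at 24 h gave 2194, 2365 and 2374 with MMF and 2336, 2276 and 2259 with DMSO, and that of CBD with EtOH 2351, 2056 and 2121 with CBD and 2379, 2188 and 2189 with EtOH. Both pairs of groups overlapped (log2FC = 0.012, SE = 0.051, adjusted p = 0.990 for MMF and log2FC = -0.051, SE = 0.085, adjusted p = 0.866 for CBD).

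Psme1 and Psme2 form the 11S activator. Psme1 had a log2FC above 0 in all 6 drug comparisons, from 0.024 to 0.21, and passed in none. Its counts were 906, 903 and 898 with DMF and 850.1, 829 and 842 with DMSO at 4 h and 811, 906 and 865 with DMF and 687, 806 and 748 with DMSO at 24 h. The DMF libraries were above all DMSO libraries at both times (log2FC = 0.10, SE = 0.068, adjusted p = 0.455 at 4 h and log2FC = 0.21, SE = 0.084, adjusted p = 0.244 at 24 h). With MMF at 24 h Psme1 had 887, 920.2 and 867 with MMF and 722, 846 and 786 with DMSO, again above the same DMSO libraries (log2FC = 0.19, SE = 0.071, adjusted p = 0.952). Psme2 had 651, 679 and 611 with DMF and 633, 661 and 631 with DMSO at 4 h and 559.5, 636 and 571 with DMF and 543, 579 and 466 with DMSO at 24 h. Its groups overlapped at both times (log2FC = 0.011, SE = 0.081, adjusted p = 0.965 at 4 h and log2FC = 0.16, SE = 0.10, adjusted p = 0.483 at 24 h).

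The inducible peptidases of the immunoproteasome were set beside their constitutive partners. Psmb8, which takes the place of Psmb5, had 692 reads over all 30 libraries, between 2 and 53 per library. Its normalized counts were 40.8, 25.0 and 13.9 with DMF and 50.6, 24.6 and 29.6 with DMSO at 4 h and 16.4, 6.52 and 10.6 with DMF and 17.4, 12.8 and 2.49 with DMSO at 24 h. The groups overlapped at both times (log2FC = -0.44, SE = 0.43, adjusted p = 0.645 at 4 h and log2FC = 0.26, SE = 0.64, adjusted p = 0.885 at 24 h). With MMF at 24 h the counts of Psmb8 were 19.97, 39.9 and 14.3 with MMF and 18.3, 13.4 and 2.61 with DMSO. This was the largest log2FC of the 40 genes against vehicle, with overlapping groups, and it did not pass (log2FC = 1.23, SE = 0.64, adjusted p = 0.952, 95% interval -0.21 to 2.68). In DMSO over time Psmb8 had 17.0, 12.5 and 2.43 at 24 h and 45.6, 22.04 and 26.5 at 4 h, all libraries of 24 h being below all of 4 h (log2FC = -1.72, SE = 0.59, adjusted p = 0.440). The summed level of the 9 microglial markers was 7.47 ± 7.16 CPM in DMSO at 4 h and 1.71 ± 0.348 CPM at 24 h, with ranges of 3.28 to 15.7 and 1.41 to 2.09 CPM, and its part in these values of Psmb8 was not tested. Of these 9 markers 1 was expressed enough to be tested and 0 passed, and Cx3cr1, P2ry12 and Tmem119 were each at 0 in 1 to 3 of the 6 libraries.

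Psmb9, which takes the place of Psmb6, had 151, 149 and 119.7 with DMF and 157, 124 and 117 with DMSO at 4 h and 97.4, 110.8 and 94.8 with DMF and 125, 134 and 106 with DMSO at 24 h. The groups overlapped at both times, and 2 of the 3 DMF libraries were below all DMSO libraries at 24 h (log2FC = 0.077, SE = 0.17, adjusted p = 0.870 at 4 h and log2FC = -0.26, SE = 0.15, adjusted p = 0.416 at 24 h). Psmb9 and Tap1, a transporter of proteasome peptides into the endoplasmic reticulum, lie head to head on chromosome 20 (GRCr8, RefSeq), with annotated starts 457 bases apart at 4669000 on the plus strand and 4668543 on the minus strand. Their windows of 250 bases before the start overlap and are given for Psmb9 (chr20:4668750-4668999, plus strand) and Tap1 (chr20:4668544-4668793, minus strand), since Tap1 rose where Psmb9 did not pass. Capitals in Tap1 mark the interferon-stimulated response element core, GAAA and GAAA spaced by 2 bases, on the other strand and starting 121 bases before the start. This core was in 5 of 37 promoters of proteasome genes (13.5%, against 3.77% of all): Psma4, Psmb3, Psmb8, Psmd7 and Psme2.
Psmb9: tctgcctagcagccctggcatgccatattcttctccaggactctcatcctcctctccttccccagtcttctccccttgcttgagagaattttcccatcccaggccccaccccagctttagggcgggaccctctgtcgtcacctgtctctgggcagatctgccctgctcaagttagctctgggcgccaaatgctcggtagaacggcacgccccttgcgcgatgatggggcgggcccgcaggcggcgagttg
Tap1: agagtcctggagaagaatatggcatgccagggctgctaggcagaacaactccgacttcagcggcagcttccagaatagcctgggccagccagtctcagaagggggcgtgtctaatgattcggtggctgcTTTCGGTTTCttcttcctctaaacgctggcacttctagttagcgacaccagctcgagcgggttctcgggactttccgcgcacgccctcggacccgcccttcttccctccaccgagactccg
These bases of Psmb9 held no match to the motifs searched. The stretch searched also took in 50 bases after the start, and over it Psmb9 was among the 19 genes with a CCAAT box. The element marked in Tap1 lies between both starts, outside the bases given for Psmb9. Its absence from those bases therefore depends on where they were cut. The part of these motifs in the values of Psmb9 and Tap1 was not tested.

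Tap1 had 259.5, 268 and 309 with DMF and 162, 186 and 155 with DMSO at 4 h. All DMF libraries were above all DMSO libraries, and Tap1 rose (log2FC = 0.73, SE = 0.13, adjusted p = 0.0301). At 24 h it had 163, 175 and 177 with DMF and 185, 196 and 169 with DMSO, with overlap (log2FC = -0.095, SE = 0.12, adjusted p = 0.737). The comparison of MMF with DMSO at 4 h gave 111.5, 164 and 144 with MMF and 148, 169.6 and 141 with DMSO for Tap1, with replicate 1 of MMF the lowest library (log2FC = -0.14, SE = 0.18, adjusted p = 1.000). With CBD at 24 h Tap1 had 147, 230.1 and 337 with CBD and 142, 154 and 161 with EtOH. Replicates 2 and 3 of CBD were above all EtOH libraries and replicate 1 was among them (log2FC = 0.56, SE = 0.27, adjusted p = 0.542).

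**Figure D5:**
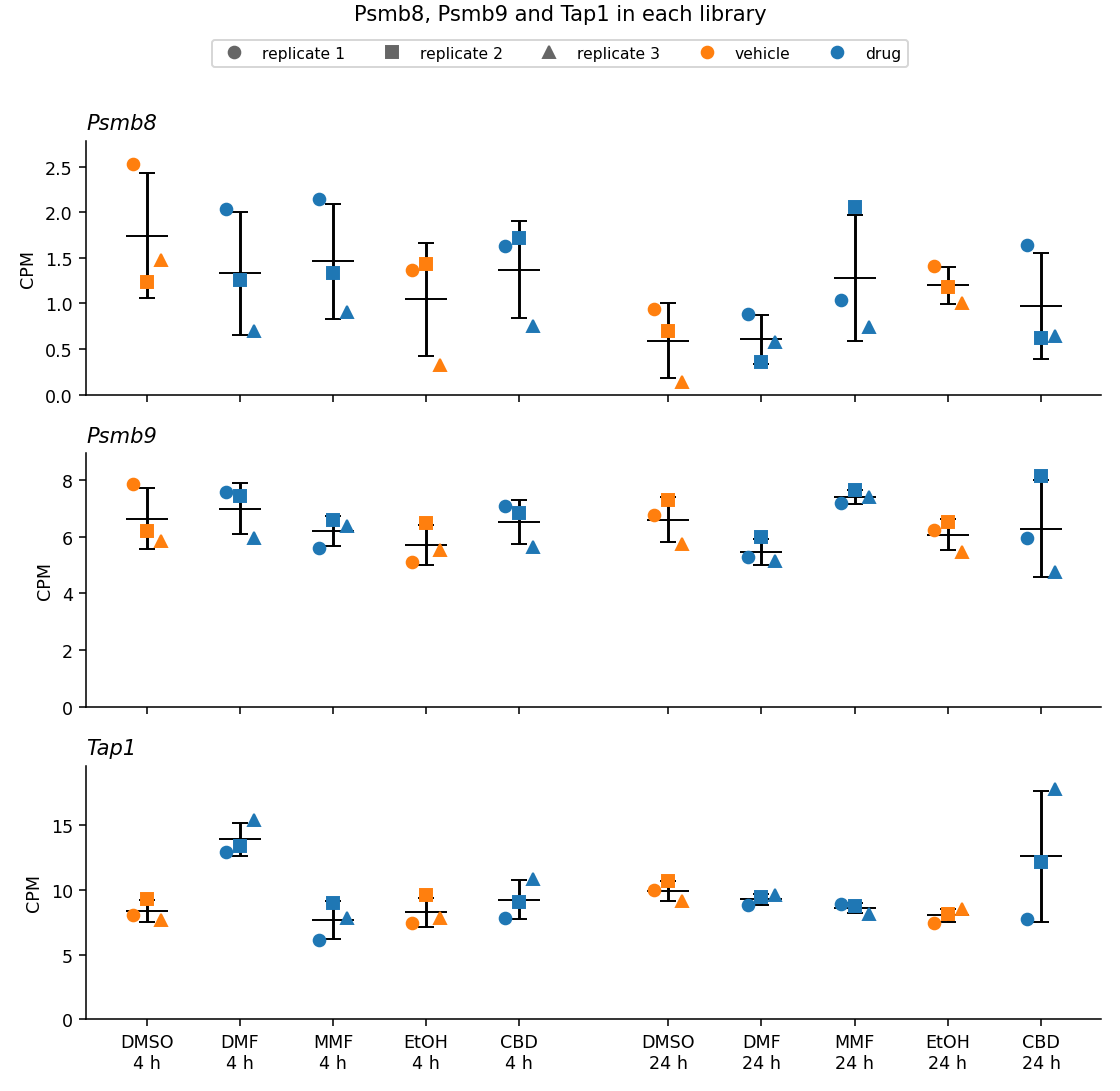
Level of Psmb8, Psmb9 and Tap1 (CPM, y axes from 0) in each of the 30 libraries, by group; marks show the replicate number, vehicle is orange and drug is blue, and lines and bars are the mean ± SD of 3 libraries. Tap1 is above vehicle in all 3 DMF libraries at 4 h, and Psmb8 runs from 0.135 to 2.53 CPM.

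The matches by symbol alone are given apart. Psmc3ip, known for its role in meiotic recombination, had 159.8, 141 and 119.7 with DMF and 200.4, 151 and 188 with DMSO at 4 h and 123, 155 and 155 with DMF and 170.0, 183 and 140.5 with DMSO at 24 h. The groups overlapped at both times (log2FC = -0.36, SE = 0.17, adjusted p = 0.288 at 4 h and log2FC = -0.19, SE = 0.15, adjusted p = 0.591 at 24 h). Psme3ip1 had log2FC of 0.061 and -0.039 with DMF at 4 and 24 h (adjusted p = 0.700 and 0.872).

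DMF and MMF differ by a methyl ester and were given at the same dose, so that they were compared directly at each time. At 4 h, 0 of 40 genes passed (limma, background 1.61%, unadjusted p under 0.05 for 4 of 40 and 17.4% of all genes, and 0 by edgeR and DESeq2). With the block 3 of 40 passed (background 23.6%), all lower with DMF (background 11.6%). Psmd12 had 1649, 1577 and 1528 with DMF and 1931, 1754 and 1856 with MMF (log2FC = -0.22, SE = 0.073, adjusted p = 0.166, and 0.0107 with the block). Psmc4 had 1961, 1816 and 1827 with DMF and 2016, 2213 and 2261 with MMF (log2FC = -0.21, SE = 0.077, adjusted p = 0.203, and 0.0203 with the block). Psmc3ip had 158, 139 and 118 with DMF and 187, 201.3 and 172 with MMF (log2FC = -0.44, SE = 0.15, adjusted p = 0.186, and 0.0160 with the block). In each of the 3 genes all DMF libraries were below all MMF libraries. Psmf1 was lower in all DMF libraries too, at 362, 357 and 376 with DMF and 409.6, 424 and 446 with MMF, and did not pass with or without the block (log2FC = -0.22, SE = 0.092, adjusted p = 0.258, and 0.0689 with the block). Tap1 was higher with DMF at 4 h, at 257, 265 and 305 with DMF and 121, 179 and 157 with MMF (log2FC = 0.87, SE = 0.17, adjusted p = 0.0492).

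At 24 h, 0 of 40 genes passed between DMF and MMF without the block (limma, background 3.56%, unadjusted p under 0.05 for 3 of 40 and 17.3% of all genes, and 0 by edgeR and DESeq2) and 0 with it (background 12.2%). Psmb9 had the lowest adjusted p of the genes named here. Its counts were 108, 122 and 105 with DMF and 146, 156 and 149.9 with MMF, all DMF libraries being below all MMF libraries (log2FC = -0.43, SE = 0.13, adjusted p = 0.133, and 0.0573 with the block). Psme4 had 3148, 2866 and 2473 with DMF and 2314, 2485 and 2498 with MMF, with replicate 3 of DMF among the MMF libraries (log2FC = 0.21, SE = 0.091, adjusted p = 0.279, 95% interval 0.0041 to 0.42). Psmf1 had 469, 564 and 559 with DMF and 469, 479 and 468 with MMF, with replicate 1 of DMF among the MMF libraries (log2FC = 0.16, SE = 0.096, adjusted p = 0.431, 95% interval -0.054 to 0.38). For the 31 core subunits the 95% intervals of the log2 difference between the fumarates ran from -0.39 (Psmd12) to 0.30 (Psmb5) at 4 h and from -0.32 (Psmb5) to 0.30 (Psmd11) at 24 h. None of the 31 passed without the block at either time, while Psmd12 and Psmc4 passed with it at 4 h. A difference that did not pass does not show that the esters act alike.

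The remaining tests gave no call of a proteasome gene, with limma, with and without the block, and with edgeR and DESeq2 without it. The DMSO cultures at 24 against 4 h gave 0 of 40 (background 0%, 1.47% with the block), with unadjusted p under 0.05 for 3 (9.75% of all genes). The effect of MMF at 24 h minus that at 4 h gave 0 of 41 (background 0%, 0% with the block), and that of CBD 0 of 41 (background 0%, 0.0552% with the block), with unadjusted p under 0.05 for 0 in each (0.909% and 4.31% of all genes). Psme1-ps1 passed the filter in these 2 fits and in the next one. The effect of CBD minus that of DMF gave 0 of 41 at 4 h (background 0.999%, 10.4% with the block) and 0 of 40 at 24 h (background 0.391%, 2.58% with the block), with unadjusted p under 0.05 for 4 and 6 genes (14.9% and 9.69% of all genes). For the 31 core subunits that difference at 24 h had a median of -0.095, with 1 of 31 above 0, and the largest was that of Psma3 (-0.29, adjusted p = 0.515). The doses and vehicles of CBD and DMF differ, so this sets their effects side by side only.

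The other genes of the pathway were taken as lists. Assembly and associated factors build the complex or bind it. Of 13 tested, 0 passed without the block in any drug comparison (background 0% to 3.97%). With the block, Psmg2 and Psmg3, chaperones of alpha ring assembly, fell with DMF at 4 h (2 of 13, background 23%). Psmg2 had 219, 245 and 212 with DMF and 304, 276 and 328 with DMSO and Psmg3 284, 231 and 223 with DMF and 319, 329 and 305 with DMSO. All DMF libraries of both genes were below all DMSO libraries (log2FC = -0.43 and -0.38, adjusted p = 0.0921 and 0.141 without the block and 0.0139 and 0.0199 with it). Of 15 tested genes of the p97 segregase, its cofactors and the shuttle factors, which deliver ubiquitinated proteins, 1 passed without the block. This was the p97 cofactor Ufd1 with DMF at 24 h (background 3.97%). Its counts were 1549, 1578 and 1413 with DMF and 1181, 1126 and 1137 with DMSO, without overlap (log2FC = 0.40, SE = 0.068, adjusted p = 0.0153). With the block, Zfand5 (log2FC = 0.27, adjusted p = 0.0113) also rose at 24 h (background 12.9%). At 4 h 5 of the 15 passed with the block (background 23%), among them Ufd1 and Zfand2a, which were higher with DMF, and Zfand5 and Ddi2, which were lower.

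Of the 6 ubiquitin and E1 genes, 0 passed without the block in the drug comparisons (background 0% to 3.97%). With the block, 1 of the 6 rose with DMF at 4 h (background 23%) and 1 at 24 h (12.9%), 1 rose and 1 fell with CBD at 4 h (2.33%), and 0 passed with MMF at either time or with CBD at 24 h.

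Genes that make, process or partner Nfe2l1 were listed together with Nfe2l2, and 9 genes of this list were tested. Without the block the background was 3.41% for DMF at 4 h and 3.97% at 24 h. Mafg, a small Maf partner of Nfe2l1 and Nfe2l2, rose with DMF at both times. Its counts were 4486, 4378 and 4782 with DMF and 3162, 3352 and 3421 with DMSO at 4 h and 3792, 3768 and 4016 with DMF and 3315, 3034 and 3063 with DMSO at 24 h, without overlap (log2FC = 0.46, SE = 0.069, adjusted p = 0.0196 at 4 h and log2FC = 0.30, SE = 0.063, adjusted p = 0.0344 at 24 h). Nfe2l2 rose at 24 h, with 438, 452 and 439 with DMF and 246, 269.7 and 173 with DMSO. All DMF libraries were above all DMSO libraries (log2FC = 0.97, SE = 0.16, adjusted p = 0.0117). Nfe2l1 itself had 3457, 3697 and 3962 with DMF and 3261, 3284 and 3429.9 with DMSO at 4 h, without overlap, and 3152, 3491 and 4114 with DMF and 3236, 3229.9 and 3173 with DMSO at 24 h, with overlap. It passed at 4 h with the block alone (log2FC = 0.15, SE = 0.073, adjusted p = 0.284, and 0.0352 with the block), and not at 24 h (log2FC = 0.15, SE = 0.092, adjusted p = 0.456). With the block, 4 of the 9 genes rose with DMF at 4 h (Mafg, Nfe2l1, Sel1l and Syvn1) and 1 fell (Ddi2, the protease that releases Nfe2l1), with 23% of all genes called in either direction. At 24 h 3 rose with the block (Maff, Mafg and Nfe2l2) and 0 fell (background 12.9%). Of 6 tested partners of antigen processing, Tap1 rose with DMF at 4 h (background 3.41%). Irf1, an interferon regulatory factor, rose with DMF at 24 h (background 3.97%). Irf1 had 179, 202 and 178 with DMF and 110.1, 125 and 124 with DMSO there, without overlap (log2FC = 0.63, SE = 0.13, adjusted p = 0.0274).

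Markers of other cells moved with DMF at 24 h, where 3.97% of all genes were called without the block. All 8 markers of proliferating cells fell, and their summed level was 110.3 ± 9.09 CPM with DMF and 246 ± 10.8 CPM with DMSO. Of 7 tested markers of the oligodendrocyte lineage, Cspg4, Pdgfra and Sox10 fell. The summed level of all 8 listed markers, the other members included, was 687 ± 86.8 CPM with DMF and 823 ± 76.5 CPM with DMSO. Of 8 astrocyte markers 1, Aldh1l1, fell, and the summed levels were 4562 ± 1303 and 3945 ± 1012 CPM. Such a sum follows its most abundant markers, here Gfap above all, and does not give the direction of each. Of 12 neuronal markers 0 passed at 24 h (5434 ± 496 and 6113 ± 349 CPM), and at 4 h Tubb3 fell (background 3.41%). With the block, 4 of 8 astrocyte markers (1 higher, 3 lower) and 5 of 12 neuronal markers (1 higher, 4 lower) passed at 24 h (background 12.9%), and 4 of 8 proliferation markers were higher with DMF at 4 h (23%). With CBD at 24 h, Gad1 and Gad2, enzymes of GABA synthesis, fell (background 0.114%, 0.504% with the block). The part of these markers in the values of the proteasome genes was not tested.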

How the data were processed

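Poly(A)+ RNA of 30 libraries was sequenced. Per the labels and the study's methods, the authors trimmed reads (FastQC 0.12.1, Cutadapt 4.4, Trimmomatic 0.39), aligned them with HISAT2 2.2.1 to mRatBN7.2, counted them on Ensembl genes with HTSeq 2.0.3 and ran DESeq2 1.40.2 in R 4.3.1. The handling of strand and of shared reads is not given in the sources used here. The deposited values are a signal, gene counts divided by the authors' DESeq2 size factors in each pairwise table. Log2 fold changes and p-values of the authors' own comparisons stand in the same tables and were not used, nor were 9 further tables beside the 10 used.

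Each value times a constant per library and table gave whole reads for 100% of 1184996 values (tolerance 0.1), and the tables gave the same reads. In R 4.3.3, genes passing edgeR 4.0.16 filterByExpr on the recovered reads were tested with limma 3.58.1 (mean trend) on log2(normalized count + 1), without a block and with the 6 libraries of each pair. Interactions used 12 libraries rescaled together by median ratios. Adjusted p-values (Benjamini-Hochberg over all genes tested) under 0.05 were called. edgeR and DESeq2 1.42.0 on the recovered reads, the replicate block, other filters, pseudocounts and scalings, and leaving out each library were alternatives. For DMF against DMSO, edgeR on the recovered reads called 498 genes at 4 h and 535 at 24 h, DESeq2 1024 and 852, and limma 485 and 554. The replicate numbers were taken from the labels. Libraries with the same number deviated together from their group means (r between 0.13 and 0.67 in the 10 comparisons, each over 0.1). For different numbers r was at most 0.19, so that the ranges overlapped. Deviations from a group mean cancel out within the group, which lowers r for different numbers when it is high for the same number. The numbers were used as pairing in the alternatives with the block alone. The main test, its SE and its intervals took no account of pairing.

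The genes named with values were those called without the block, the gene with the smallest unadjusted p per role class in both DMF comparisons, and the peptidase pairs, activators and inhibitor. Those called with the block alone, Tap1, and called genes of the lists were added. Members and lists were chosen with earlier results of these data known. Values of some genes of the pathway lists are not reported here. Scripts were tested on simulated counts.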

Additional observations from a re-analysis of the deposited data

Results flagged for a closer look

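The effect of DMF on Psmf1 differed between the times by 0.424 on the log2 scale (SE 0.13), being -0.29 at 4 h and 0.14 at 24 h. It drew attention through the interaction test with the replicate number as a block (limma, adjusted p = 0.0340), while the test without the block did not pass (adjusted p = 0.0968). In DMF libraries Psmf1 was higher at 24 h in 3 of 3 replicate pairs, and in DMSO libraries in 2 of 3.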

How the results depend on the processing

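Of 225 counts of called proteasome genes recomputed under the alternatives, 209 stayed within 1.5 times. The count as reported was 0 in 14 of the 15 tests, so that most of the 209 only stayed at 0, where a ratio has no meaning. Of 123 values of single genes 102 kept their direction and their side of the threshold. None of these 123 reversed. With the replicate block, limma called 2 proteasome genes for DMF against DMSO at 4 h, 1 for DMF at 24 h, 3 for DMF against MMF at 4 h, 2 for DMF at 24 against 4 h and 1 for the DMF effect at 24 minus 4 h, against 0, 0, 0, 1 and 0 without it. The block changed no other count of called proteasome genes. The number with unadjusted p under 0.05 was equal or higher with it in all 15 tests, for example 8 against 3 for CBD at 4 h, 7 against 3 for DMSO over time and 2 against 1 for CBD at 24 h. With edgeR and the block the called genes numbered 2, 1, 3, 4 and 1 in the 5 comparisons that the block changed (Psmb8 and Psmd12 being added for DMF at 24 against 4 h), and 1, Psmc4, was called for the CBD effect minus the DMF effect at 4 h. Leaving out each library gave 0 to 1 called genes for DMF against DMSO at 24 h, for DMF at 24 against 4 h and for the DMF effect at 24 minus 4 h, and 0 elsewhere. No other alternative (edgeR, DESeq2, TMM scaling, no filter, pseudocount 0.1) moved a count of called proteasome genes, but the number with unadjusted p under 0.05 did move, for example with DESeq2 from 7 to 3 for DMF at 24 h, from 2 to 0 for MMF at 24 h and from 3 to 1 for CBD at 4 h, and with TMM scaling from 3 to 1 for DMF against MMF at 24 h. In all genes, DESeq2 called 1024 for DMF at 4 h and 852 at 24 h, against 485 and 554 by limma. The median of all genes was at most 0.018 from 0 under these settings. Over left-out libraries the core median changed sign for MMF at 4 h (-0.017 to 0.024), for DMF at 24 against 4 h (-0.029 to 0.043) and for the CBD effect at 24 minus 4 h (-0.016 to 0.042). The causes of these changes were not tested. Depth limits Psmb8, with 2 to 53 reads per library, and intervals of the other genes rest on 3 libraries per group.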
